A study of Eleusine coracana with 4 samples.

Results

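The comparison described here sets the salt-stressed leaf library of the finger millet genotype Trichy 1 against the salt-stressed leaf library of the genotype CO12. Its members are the 576 loci with at least 20 total gene reads in either of these 2 libraries, out of 55986 features in each deposited table. Finger millet (Eleusine coracana) is a C4 cereal, and the RNA came from the top 2 fully expanded young leaves near the shoot apex. The salt groups, Trichy 1 and CO12, were given NaCl to 300 mM at the 4-leaf stage, 20 days after sowing. The groups without salt, Trichy 1 control and CO12 control, were kept well watered and serve below as the same genotype contrast in libraries that the salt contrast does not use. All plants grew in soil in perforated pots. Each group has 1 library, and the labels do not say how many plants went into it or how long after the salt the leaves were taken. No difference between 2 libraries therefore has a replicate check, and no p-value is given. All intervals are 95% intervals that cover counting error only.

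Salt in the soil lowers the water a root can take up and, over time, loads the leaf with sodium and chloride. Cereals are known to differ in how well they keep sodium out of young leaves, store it in vacuoles, make compatible solutes and hold up photosynthesis, and genotypes are usually compared under stress because such differences may not show in well watered plants. The series title sets the molecular basis of salinity tolerance as its question, but which of the genotypes is the tolerant one is not stated in the sample labels.

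The deposited tables identify a locus by a LOC_Os identifier and a length in bases, and pair no identifier with a gene name, a product or a sequence. No annotation was used, so no role is given to any locus and the leaf label could not be checked against marker genes. None of the 31 keyword lists written for this comparison (photosynthesis, ion transport, chaperones and others) could be matched, so no list is described. Identifiers of this form are those of rice loci, and chromosome numbers below are the digits after Os, which need not be those of finger millet. A finger millet transcript that matches a rice locus unequally well in the 2 genotypes would change its ratio, and this was not tested.

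The Trichy 1 salt library held 2406821 total gene reads and the CO12 salt library 1831353, of which 92.9% and 93.1% were unique, that is, assigned to 1 locus. One read was worth 0.416 RPM (total gene reads scaled to a library total of 1000000) in Trichy 1 salt and 0.546 RPM in CO12 salt. A few loci took most reads: the 10 most abundant held 94.8% of the Trichy 1 salt reads and 94.7% of the CO12 salt reads, and 18 of the 20 most abundant loci were the same in both. The 576 loci together took 98.8% and 98.7% of the reads, and each had at least 1 read in both libraries. Their median level was 19.9 RPM in Trichy 1 salt and 20.8 RPM in CO12 salt.

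Under salt, the leaf RNA of the genotypes was alike in its broad outline. Across the 576 loci the log2 RPM of Trichy 1 and CO12 were correlated (Pearson's r = 0.951, Spearman's rho = 0.857). Without the 20 most abundant loci of either library the values were r = 0.897 and rho = 0.839 over 554 loci. These are descriptions across loci, which share 2 libraries and are not replicates. The log2 ratios, Trichy 1 over CO12, had a median of 0.04 and quartiles of -0.37 and 0.44.

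At least 2-fold differences were seen for 74 of the 576 loci, 12.8%. Trichy 1 was at least 2-fold above CO12 at 43 loci (7.47%) and at least 2-fold below it at 31 (5.38%). Counting intervals excluded equality for 34 of these 43 loci (5.90% of the 576) and for all 31 of the lower ones (5.38%). The intervals use the same counts that chose the loci and are no separate support. A count of 20 reads was 8.31 RPM in Trichy 1 salt and 10.9 RPM in CO12 salt. Higher loci could thus pass the read minimum at a lower level than lower loci, and its part in these counts was not tested. TMM factors, a scaling that adds 0.14 to every log2 ratio here, gave 58 loci above and 21 below. Median-of-ratios factors gave 52 above and 23 below. The interval lay wholly beyond 2-fold for 5 loci higher (0.868%) and 5 lower (0.868%) in Trichy 1, and these 10 are given first.

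**Figure D1:**
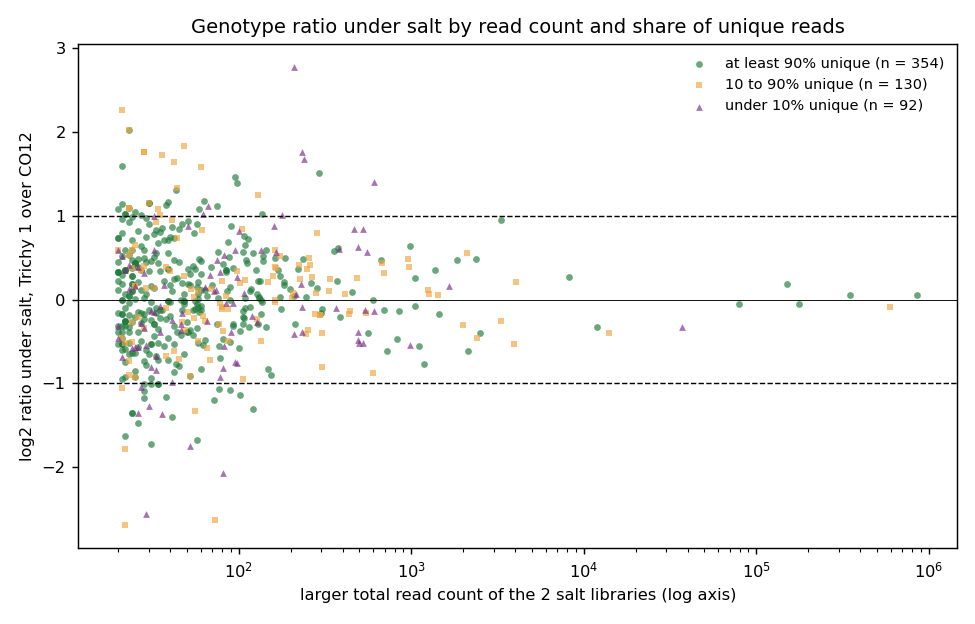
Log2 ratio under salt (Trichy 1 over CO12) of each of the 576 loci against the larger of its 2 total read counts, on a log axis. Colours and markers give the share of unique reads, and dashed lines mark 2-fold: the spread narrows with read count, and of the 52 loci with 500 or more reads 1 lies beyond the dashed lines.

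LOC_Os03g55874 on chromosome 3 (1262 bp) had the highest ratio. It had 87.3 RPM in Trichy 1 salt against 12.6 RPM in CO12 salt, a ratio of 6.95 (interval 4.51 to 11.2). Without salt it had 60.6 RPM in Trichy 1 against 30.4 RPM in CO12, a ratio of 1.99 (1.63 to 2.44). The locus was thus higher in Trichy 1 in both pairs of libraries, and the log2 ratio under salt exceeded that without salt by 1.78 (1.10 to 2.46). Of its reads, 15 of 210 in Trichy 1 salt and 0 of 23 in CO12 salt were unique, so nearly all of them also matched other loci.

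LOC_Os08g06390 on chromosome 8 (459 bp) was the only one of the 10 with at least 90% unique reads, and every one of its reads in all 4 libraries was unique. It had 293 reads in Trichy 1 salt and 78 in CO12 salt, or 122 RPM against 42.6 RPM, a ratio of 2.86 (2.22 to 3.72). Without salt it had 45.7 RPM in Trichy 1 and 47.7 RPM in CO12, a ratio of 0.959 (0.784 to 1.17). By RPM the Trichy 1 salt library was therefore the high one, and the other 3 libraries lay between 42.6 and 47.7 RPM. TMM factors take 0.44 and median-of-ratios factors 0.25 from its log2 ratio without salt, which was -0.06. These factors were computed within each pair only, so this and later orders of all 4 libraries rest on library totals. The difference of its log2 ratio, salt minus control, was 1.57 (1.11 to 2.03).

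The other 3 loci of the higher group had few unique reads. LOC_Os06g22919 on chromosome 6 (14968 bp) had 96.4 RPM in Trichy 1 salt against 28.4 RPM in CO12 salt, a ratio of 3.40 (2.5 to 4.68), and 64.5 RPM against 13.1 RPM without salt. It had 1 unique read in Trichy 1 salt and 3 in CO12 salt, too few to give a direction by unique reads. LOC_Os01g57966 on chromosome 1 (1979 bp) had 98.5 RPM in Trichy 1 salt against 30.6 RPM in CO12 salt, a ratio of 3.22 (2.40 to 4.39), and 24.2 RPM against 10.04 RPM without salt. Both were higher in Trichy 1 with and without salt, and for both the interval of the difference between the log2 ratios included 0. For LOC_Os01g57966 this turned with the scaling, its difference being 0.42 (-0.21 to 1.05). TMM factors add 0.58 and median-of-ratios factors 0.34 to every such difference, and either takes its interval wholly above 0. The interval of LOC_Os06g22919 included 0 with either scaling. LOC_Os10g21250 on chromosome 10 (2253 bp) had 252 RPM in Trichy 1 salt against 95 RPM in CO12 salt, a ratio of 2.65 (2.24 to 3.16), and 297 RPM against 228 RPM without salt. Its CO12 salt library was the low one of the 4.

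Among the 5 lower loci, LOC_Os07g48620 on chromosome 7 (3096 bp) had the most unique reads, 14 of 15 in Trichy 1 salt and 58 of 73 in CO12 salt. It had 6.23 RPM in Trichy 1 salt against 39.9 RPM in CO12 salt, 6.4-fold lower (3.64 to 12), and 12.8 RPM against 20.7 RPM without salt. It was lower in Trichy 1 in both pairs, and by more under salt, with a difference of the log2 ratios of -1.95 (-2.88 to -1.01). LOC_Os10g39680 on chromosome 10 (1912 bp) had 4 reads in Trichy 1 salt and 22 in CO12 salt, 7.23-fold lower (2.46 to 28.9). It had 2 and 3 reads in Trichy 1 control and CO12 control, so CO12 salt was the library in which it was high.

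LOC_Os05g44550 on chromosome 5 (2574 bp) had 2.49 RPM in Trichy 1 salt against 15.8 RPM in CO12 salt, 6.35-fold lower (2.59 to 18.7), and 5.97 RPM against 22.2 RPM without salt. Both Trichy 1 libraries lay below both CO12 libraries for this locus. LOC_Os01g52250 on chromosome 1 (10480 bp) had 8.31 RPM in Trichy 1 salt against 28.4 RPM in CO12 salt, 3.42-fold lower (2.005 to 6.04), and 60.3 RPM against 46.6 RPM without salt. Both salt libraries lay below both control libraries, and Trichy 1 salt was the lowest. LOC_Os10g21212 on chromosome 10 (1422 bp) had 10.4 RPM in Trichy 1 salt against 44.2 RPM in CO12 salt, 4.26-fold lower (2.69 to 6.96), and the other order without salt, 24.2 RPM against 10.4 RPM. In these 3 loci at most 2 reads were unique in either salt library.

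**Figure D2:**
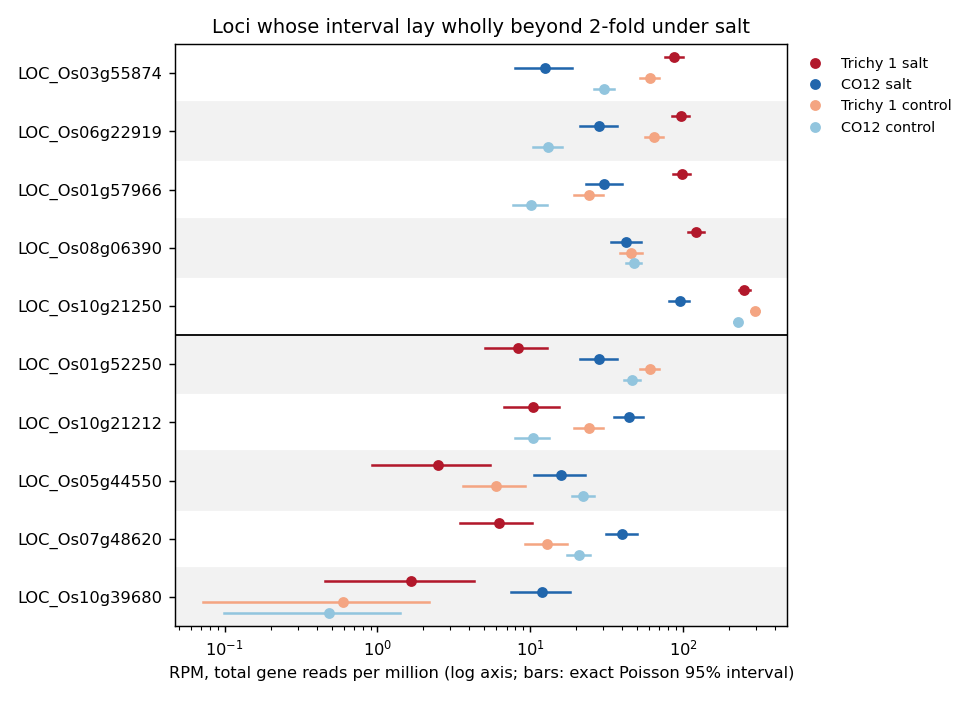
RPM of the 10 loci whose counting interval lay wholly beyond 2-fold under salt, in each of the 4 libraries on a log axis, with exact Poisson 95% intervals for the single library. The 5 loci above the line were higher and the 5 below it lower in Trichy 1 salt than in CO12 salt: LOC_Os08g06390 stands at 122 RPM in Trichy 1 salt and between 42.6 and 47.7 RPM in the other 3 libraries.

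Reads that match 1 place only bear most directly on a single locus, and the comparison was therefore read again by share of unique reads. Of the 576 loci, 354 had at least 90% unique reads over both salt libraries, 130 had 10 to 90%, and 92 had under 10%. At least 2-fold differences were seen for 11.3% of the first class (21 higher, 19 lower in Trichy 1), 15.4% of the second (15 and 5) and 15.2% of the third (7 and 7). The spread of the log2 ratios was 0.60 (SD over loci) in the first class, 0.77 in the second and 0.80 in the third. Of the 43 higher loci, 27 had 20 or more unique reads in either library, and 26 of these were at least 2-fold higher by unique reads alone. Of the 31 lower loci, 21 had that many, and all 21 were at least 2-fold lower by unique reads alone. For 16 of the 43 and 16 of the 31 every read under salt was unique, so for these the unique count is the same count and this is no separate check. With at least 90% unique reads, 21 of the 43 and 19 of the 31 had nearly the same count. Unique reads are part of the total reads that chose the loci, so the agreement was largely set by that choice.

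The next 3 loci had unique reads only, in each of the 4 libraries. LOC_Os05g43390 on chromosome 5 (3568 bp) had 40.3 RPM in Trichy 1 salt against 15.3 RPM in CO12 salt, a ratio of 2.64 (1.72 to 4.17), and 10.5 RPM against 11.2 RPM without salt, a ratio of 0.937 (0.606 to 1.42). LOC_Os06g05940 on chromosome 6 (3753 bp) had 9.56 RPM in Trichy 1 salt against 2.18 RPM in CO12 salt, from 23 and 4 reads, a ratio of 4.38 (1.49 to 17.4), and 3.29 RPM against 3.03 RPM without salt. With 11 and 19 reads in Trichy 1 control and CO12 control it did not reach the read minimum there, and the interval of its ratio of 1.08 (0.466 to 2.40) includes 2-fold in both directions. LOC_Os09g04870 on chromosome 9 (2049 bp) lay on the other side, with 8.31 RPM in Trichy 1 salt against 22.4 RPM in CO12 salt, 2.69-fold lower (1.54 to 4.85), and 11.0 RPM against 10.4 RPM without salt, a ratio of 1.07 (0.693 to 1.62). In LOC_Os05g43390 and LOC_Os06g05940 the Trichy 1 salt library was the highest of the 4, and in LOC_Os09g04870 the CO12 salt library was.

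LOC_Os03g11819 on chromosome 3 (1436 bp), also with unique reads only, had 39.5 RPM in Trichy 1 salt against 14.2 RPM in CO12 salt, a ratio of 2.78 (1.79 to 4.47). Without salt it was lower in Trichy 1, with 10.5 RPM against 20.9 RPM. LOC_Os11g42000 on chromosome 11 (4690 bp) kept one order: 24.9 RPM in Trichy 1 salt against 55.1 RPM in CO12 salt, 2.21-fold lower (1.59 to 3.10), and 14.3 RPM against 28.7 RPM without salt. LOC_Os03g12380 on chromosome 3 (429 bp) had 26.6 RPM in Trichy 1 salt against 66.1 RPM in CO12 salt, 2.48-fold lower (1.82 to 3.42), and 72.6 RPM against 116 RPM without salt. Both of these were lower in Trichy 1 in both pairs. LOC_Os03g12380, LOC_Os05g43390 and LOC_Os11g42000 were chosen after their values were seen, for their unique reads.

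LOC_Os06g08240 on chromosome 6 (2430 bp) was far lower in Trichy 1 without salt and less so under it. It had 4.99 RPM in Trichy 1 salt against 16.9 RPM in CO12 salt, 3.40-fold lower (1.70 to 7.26). Without salt it had 3.29 RPM in Trichy 1 and 45.3 RPM in CO12. The CO12 control library thus stood highest, and both Trichy 1 libraries lay below both CO12 libraries. LOC_Os01g07212 on chromosome 1 (6071 bp) had its larger observed difference under salt and CO12 salt as its highest library. It had 9.56 RPM in Trichy 1 salt against 31.1 RPM in CO12 salt, 3.26-fold lower (1.97 to 5.54), and 5.97 RPM in Trichy 1 against 10.2 RPM in CO12 without salt. The interval of the difference between its log2 ratios, salt minus control, did not exclude equality.

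The genotype contrast without salt shares no library with the one under salt, and is set beside it here. Without salt, of 1034 loci with 20 or more reads in either control library, 173 (16.7%) were 2-fold apart, with Trichy 1 above CO12 at 78 (7.54%) and below it at 95 (9.19%). TMM factors, which take 0.44 from every log2 ratio of that pair, gave 27 above and 200 below, and median-of-ratios factors gave 45 and 149. Of the 43 loci 2-fold higher under salt, 36 passed this read minimum without salt, where 4 were again 2-fold higher, 1 was 2-fold lower and 31 lay within 2-fold. Of the 31 loci 2-fold lower under salt, 26 passed it, where 2 were again 2-fold lower, 4 were 2-fold higher and 20 lay within 2-fold. Over all 544 loci that passed in both pairs, 51 (9.38%) were 2-fold higher and 17 (3.12%) 2-fold lower without salt. The 4 of 36 come to 11.1% and the 2 of 26 to 7.69%, counts too small to set against those shares.

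Counted from the other side, 51 of the 78 loci higher without salt passed the minimum under salt, where 4 were 2-fold higher and 4 were 2-fold lower in Trichy 1. Of the 95 lower ones, 17 passed it, where 1 was 2-fold higher and 2 were 2-fold lower. Over all 544 loci that passed in both pairs, 36 were 2-fold higher and 26 were 2-fold lower under salt. Over all 576 loci under salt, passing without salt or not, the shares were 7.47% higher and 5.38% lower. The control libraries were deeper, with 3347497 total gene reads in Trichy 1 and 6272817 in CO12. A count of 20 reads was thus 5.97 RPM and 3.19 RPM there, against 8.31 RPM and 10.9 RPM under salt. How far this unequal minimum shaped the counts without salt was not tested. The interval of the difference between the log2 ratios, salt minus control, lay above 0 for 21 of the 36 higher loci and below 0 for none of them. It lay below 0 for 20 of the 26 lower loci and above 0 for 1. Loci chosen for a high or low ratio under salt tend to this side by that choice, so these counts describe them and are no test. Over all 544 loci it lay above 0 for 77 and below 0 for 156, and this balance turned with the scaling: TMM factors, which add 0.58 to every such difference, gave 198 above and 52 below, and median-of-ratios factors gave 127 and 89.

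**Figure D3:**
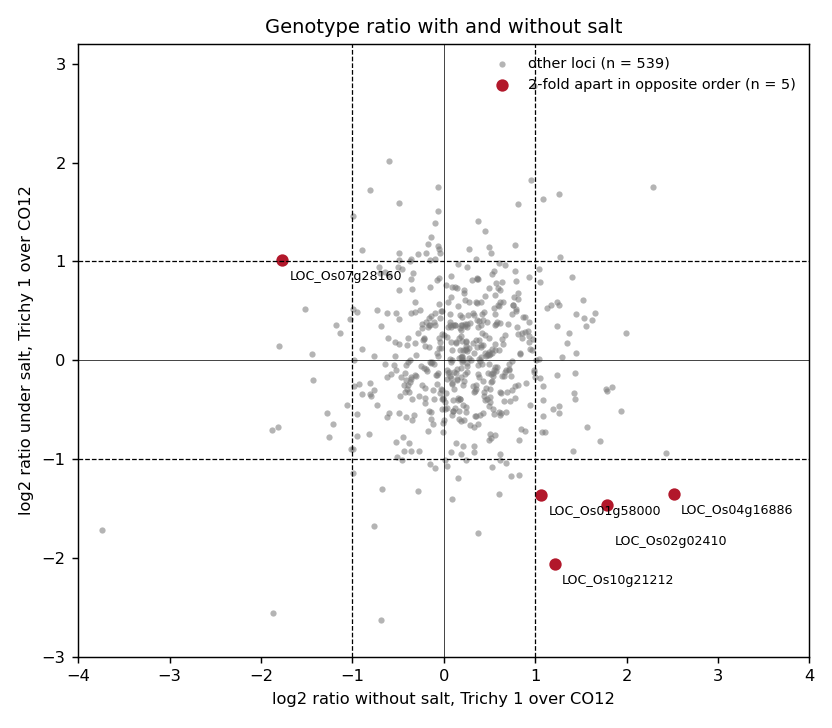
Log2 ratio of Trichy 1 over CO12 under salt (vertical axis) against the same ratio without salt (horizontal axis) for the 544 loci with 20 or more reads in either library of both pairs, with dashed lines at 2-fold. The 5 red loci were at least 2-fold apart in opposite orders with and without salt, with both counting intervals excluding equality.

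There were 5 loci, 1 higher and 4 lower in Trichy 1 under salt, that were at least 2-fold apart the other way round without salt, with both counting intervals excluding equality. Of the loci over the read minimum in both pairs, they were 1 of 36 higher (2.78%) and 4 of 26 lower under salt (15.4%). Over all 544 such loci, 3.12% were 2-fold lower and 9.38% 2-fold higher without salt. The counts are too small to set against those shares. Scaling decided part of this list: TMM factors gave 10 such loci, median-of-ratios factors gave 6, and leaving the 20 most abundant loci out of the totals gave 7. Of the 5, LOC_Os07g28160, LOC_Os02g02410 and LOC_Os04g16886 were in it under each of these. Other loci joined it under each of these, among them LOC_Os03g11819, described above, with unique reads only. LOC_Os07g28160 on chromosome 7 (3641 bp), with unique reads only, had 56.5 RPM in Trichy 1 salt against 27.8 RPM in CO12 salt, a ratio of 2.03 (1.46 to 2.86), and 17.6 RPM against 60.3 RPM without salt. LOC_Os02g02410 on chromosome 2 (3956 bp) had 12 reads in Trichy 1 salt and 26 in CO12 salt, 2.85-fold lower (1.39 to 6.20), and 23 and 12 reads in Trichy 1 control and CO12 control, a ratio of 3.59 (1.72 to 7.92). All but 1 of its reads in each CO12 library were unique, as were all in Trichy 1. The remaining 3 loci (LOC_Os10g21212, LOC_Os01g58000 and LOC_Os04g16886) had at most 1 unique read in any library.

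Some loci have partners of exactly the same length. Among the 576 loci, 13 sets of at least 3 loci with the same deposited length hold 47 loci, and in 6 of these sets no read was unique in either salt library. The sets were formed after the data were seen, by length alone, and some (those of 2049 and 2205 bp) include loci with unique reads only. The 4 loci of 249 bp (on chromosomes 4, 7, 8 and 9) had nearly the same count each, 456 to 492 reads in Trichy 1 salt and 490 to 521 in CO12 salt. Their log2 ratios lay between -0.52 and -0.39, and their summed reads gave a ratio of 0.719 under salt and 1.10 without salt. None of their reads was unique, and the 4 counts may not be separate observations. Whether they count the same reads cannot be told from the tables.

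The 4 loci of 471 bp, 3 on chromosome 4 and 1 on chromosome 8, were all below equality in Trichy 1 under salt and had no unique reads in the salt libraries. They had 13 to 21 reads each in Trichy 1 salt and 24 to 30 in CO12 salt, and their sums gave a ratio of 0.477. Without salt they had 17 to 23 reads each in Trichy 1 and 7 to 22 in CO12, a ratio of sums of 2.74. LOC_Os04g16886, LOC_Os04g16712 and LOC_Os04g16856 are 3 of the 31 loci lower in Trichy 1 under salt, and whether they count the same reads cannot be told from the tables.

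Loci of 1 length could also differ among themselves. In the set of 2253 bp, the 5 loci had log2 ratios between -0.41 and 1.41 under salt, the highest being LOC_Os10g21250. In the set of 1979 bp the 3 loci lay between -0.25 and 1.68, the highest being LOC_Os01g57966. In the set of 1380 bp, 2 loci lay at -0.92 and -0.82 and LOC_Os10g21238 at 0.56. How reads that match several places were placed is not given in the sources used here. Whether these differences within a set depend on that step was not tested. Over the 47 loci the log2 ratio was above 0 for 22 under salt and for 47 without salt, with medians of -0.09 and 0.74. With TMM factors it was above 0 for 25 and for 34, with medians of 0.05 and 0.30.

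**Figure D4:**
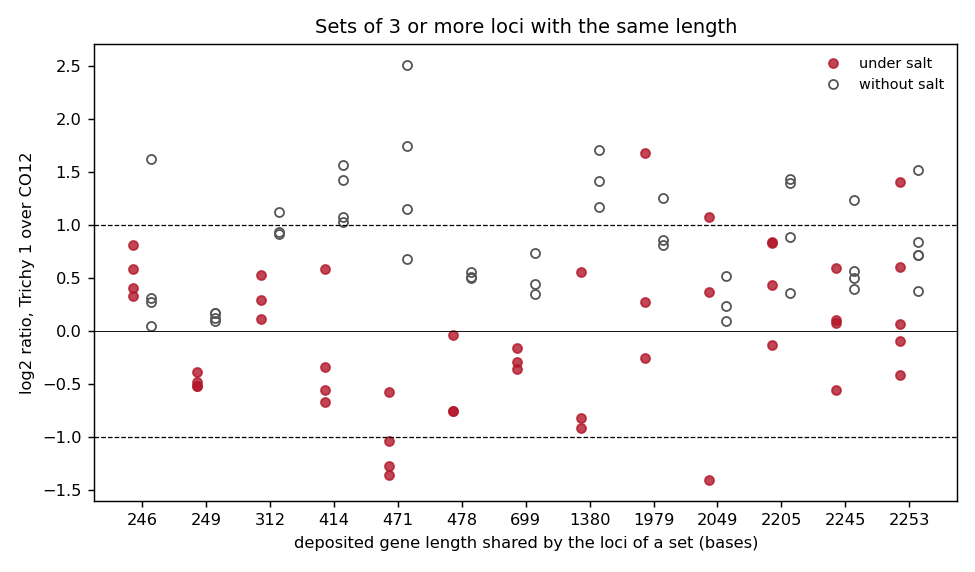
Log2 ratio of Trichy 1 over CO12 for each locus in the 13 sets of loci that share a deposited length, under salt (filled) and without salt (open), with dashed lines at 2-fold. The 4 loci of 249 bp, with no unique read under salt, lie within 0.13 of each other there, and the 5 loci of 2253 bp, with at most 0.256% unique reads each, span 1.82.

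Position along the identifiers gave another way to group the loci. Loci over the read minimum that lie at most 10 table rows apart formed 8 runs of 6 or more, with 104 loci in all, a grouping also made after the data were seen. In these runs 6 loci were 2-fold higher and 6 were 2-fold lower in Trichy 1 under salt, against 37 and 25 of the 472 loci outside them. At least 2-fold differences were thus seen for 12 of the 104 loci in runs and 62 of the 472 outside. The median log2 ratios were 0.07 and 0.03. The run on chromosome 4 from LOC_Os04g16680 to LOC_Os04g16886 (27 loci) had a median log2 ratio of -0.10 under salt and 0.79 without salt, and the run on chromosome 10 from LOC_Os10g21190 to LOC_Os10g21418 (26 loci) had 0.32 and 0.73. With TMM factors these medians were 0.04 and 0.35 on chromosome 4, and 0.46 and 0.28 on chromosome 10, so under salt the sign of the chromosome 4 median turned with the scaling. By chromosome, the number of 2-fold loci was small throughout, from 3 of 25 on chromosome 9 and 3 of 23 on chromosome 11 to 9 of 46 on chromosome 12, where 7 were higher and 2 lower in Trichy 1. Chromosome 8 had 4 higher and 0 lower among 43. Over all 576 loci, 7.47% were 2-fold higher and 5.38% 2-fold lower. The counts by chromosome are too small to set against those shares.

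The most abundant loci, which set the library totals, differed little between the genotypes under salt. LOC_Os09g01000 on chromosome 9 took 35.7% of the reads (35.6% to 35.8%, Wilson) in Trichy 1 salt and 34.4% (34.3% to 34.5%) in CO12 salt, against 29.4% in Trichy 1 control and 21.2% in CO12 control. The 10 most abundant loci had log2 ratios between -0.40 and 0.26 under salt, inside 2-fold throughout. The lowest of these was LOC_Os02g47580 on chromosome 2 (4077 bp), with 0.582% of the reads in Trichy 1 salt and 0.768% in CO12 salt, and the highest was LOC_Os04g10720 on chromosome 4 (1181 bp), with 0.338% and 0.282%. LOC_Os04g43410 on chromosome 4 (12362 bp), named after its values were seen, came closest to 2-fold among the 52 loci with 500 or more reads, apart from LOC_Os10g21250 beyond it. It had 1380 RPM in Trichy 1 salt against 717 RPM in CO12 salt, a ratio of 1.92 (1.80 to 2.05), and 1089 RPM against 1542 RPM without salt, nearly all from unique reads.

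The share of loci 2-fold apart was smaller at higher read counts. Among the 283 loci with 20 or more but under 50 reads in their higher library, 17.0% were at least 2-fold apart, against 13.6% of the 118 loci with 50 or more but under 100, 7.32% of the 123 with 100 or more but under 500 and 1.92% of the 52 with 500 or more. At the edge of the read minimum, the 40 loci with 20 or 21 reads had a median log2 ratio of 0.06, and the 59 loci just under it, with 18 or 19 reads, had -0.22. The median length was 2720 bp for the higher and 2434 bp for the lower ones, against 2710 bp for all 576 loci.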

How the data were processed

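Leaf RNA was depleted of ribosomal RNA, fragmented with RNase III, adapter-ligated and sequenced on an Ion Proton, per the labels' protocols. The authors deposited 1 table per library with counts of total and of unique gene reads per feature, not normalized, and RPKM values, which equalled RPM divided by gene length in kilobases (largest relative difference 5.7e-08) and were not tested separately. For the aligner, the counting tool and the build: not given in the sources used here. No molecular identifiers are mentioned, and PCR copies may be counted as reads.

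Total gene reads were scaled to library totals with a prior of 0.5 count scaled to depth, and log2 ratios (Trichy 1 over CO12) were taken for features with 20 or more reads in either library; 2-fold or more was counted. Ratios in the text use no prior. Their intervals are exact conditional binomial (Clopper-Pearson), and differences of log2 ratios have intervals of 1.96 standard errors from the 4 counts. Alternatives were TMM factors (edgeR 4.0.16) and median-of-ratios factors, both over each pair, totals without the 20 most abundant features, unique reads, other read minimums, a prior of 2.5 and a 4-fold threshold. The calculation was tested on simulated data (numpy 2.4.6, scipy 1.17.1). Named loci are taken from the 15 highest and 15 lowest ratios among loci at least 2-fold apart whose interval excludes equality, and the 10 most abundant. The text names 9 more, chosen after their values were seen: LOC_Os03g12380, LOC_Os04g16712, LOC_Os04g16856, LOC_Os04g43410, LOC_Os05g43390, LOC_Os07g28160, LOC_Os10g21238, LOC_Os10g21250 and LOC_Os11g42000. The comparison, rule and alternatives were chosen with earlier results of these data known.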

Additional observations from a re-analysis of the deposited data

Results flagged for a closer look

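There were 5 loci at least 2-fold apart between the genotypes in opposite orders under salt and without it, with both counting intervals excluding equality. The difference was not tested, since each group has 1 library. The difference of the log2 ratio (Trichy 1 over CO12), salt minus control, was 2.78 for LOC_Os07g28160 (interval 2.17 to 3.39), all of whose reads were unique, and -3.26 (-4.64 to -1.87) for LOC_Os02g02410. It was -3.28 (-4.08 to -2.49) for LOC_Os10g21212, -2.43 (-3.39 to -1.48) for LOC_Os01g58000 and -3.87 (-5.39 to -2.35) for LOC_Os04g16886, which had at most 1 unique read in any library. TMM factors would add 0.58 to each of these differences and median-of-ratios factors 0.34. With either scaling LOC_Os10g21212 and LOC_Os01g58000 were no longer 2-fold apart in both pairs, and the other 3 were. The 5 loci were 1 of 36 higher (2.78%) and 4 of 26 lower under salt (15.4%). Over all 544 loci above the read minimum in both pairs, 3.12% were 2-fold lower and 9.38% 2-fold higher without salt. The counts are too small to set against those shares.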

How the results depend on the processing

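The count of 74 of 576 loci at least 2-fold apart under salt was 50 of 446 with unique reads. It was 53 with a prior of 2.5 and 72 without the 20 most abundant loci in the totals. Median-of-ratios factors gave 75 and TMM factors 79, and all these counts lay within 1.5 times of 74. The count of 43 higher loci was 28 with unique reads. With a minimum of 100 reads, 8 of 175 loci were higher and 2 lower. Without salt, the count of 173 of 1034 loci ran from 131 of 857 (unique reads) to 227 of 1034 (TMM factors). The read minimum and threshold moved both. With no minimum, 13244 of 18315 loci were 2-fold apart under salt and 17325 of 25566 without. With a minimum of 100 reads, 10 of 175 and 40 of 324 were. At 4-fold it was 8 of 576 and 16 of 1034, and with intervals wholly beyond 2-fold 10 of 576 and 31 of 1034. The 5 loci in opposite orders with and without salt became 10 with TMM factors. Intervals of the difference, salt minus control, lay above 0 for 77 loci and below for 156, for 198 and 52 with TMM factors and for 127 and 89 with median-of-ratios factors; these settings were chosen after seeing the data. Of 241 log2 ratios of named loci under these alternatives, 210 stayed within their counting interval, 24 moved and 7 changed sign. The 7 were LOC_Os01g57968, LOC_Os03g24640 and LOC_Os09g00999, near equality and among the 10 most abundant, at 0.057, 0.082 and 0.091 with TMM factors and at 0.0078, 0.033 and 0.041 with median-of-ratios factors, and LOC_Os06g22919 at -1.52 with unique reads, of which it had 1 in Trichy 1 salt and 3 in CO12 salt. The counts of keyword-list members were not run because no list could be matched. No paired analysis was possible because each group has 1 library and no test was made. Loci under about 50 reads have wide intervals.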
